A study of Rattus norvegicus with 40 samples.

Results

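10 genes of the cell division machinery were followed in liver of rats given the carcinogen diethylnitrosamine (DEN): the D cyclins Ccnd1, Ccnd2 and Ccnd3, the E cyclins Ccne1 and Ccne2, the A and B cyclins Ccna2, Ccnb1 and Ccnb2, and the kinases Cdk1 and Cdk2. They were taken by symbol from the gene count files, where all 10 were present among 17337 genes. Male Fischer 344 rats, 7 weeks old at the start, received weekly intraperitoneal DEN at 50 mg/kg and were sampled after 8 weeks (DEN08), after 14 weeks (DEN14), or at 20 weeks after 14 weeks of DEN and 6 weeks without it (DEN20). Rats of the same age with no DEN (NOD08, NOD14 and NOD20) were the controls. Non-tumoral liver (NT) was taken at all 3 times and tumor nodules (T) at 14 and 20 weeks, which gave 8 groups of 4 rats from 24 rats in all. Each of the 8 rats with nodules gave NT liver and 2 nodules, and both nodules of an animal were summed into 1 value, so that 40 libraries made 32 values. All rats were of a single sex and strain, and the libraries came from pieces of whole tissue.

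A cyclin is the regulatory subunit that switches on its cyclin-dependent kinase. D cyclins with Cdk4 or Cdk6 carry growth signals through G1, E cyclins with Cdk2 start DNA replication, cyclin A acts in S phase and G2, and cyclin B with Cdk1 drives mitosis. The mRNA of A and B cyclins and of Cdk1 accumulates late in the cycle and falls when cells leave it, whereas D cyclin mRNA follows growth signals and Cdk2 mRNA varies little over the cycle. Most hepatocytes of adult liver are at rest, and re-enter the cycle after injury or loss of tissue.

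Counted read pairs ranged over the 40 libraries from 20528515 to 160622633 with a median of 30477421, at which 1 CPM (1 pair in 1000000 counted) is 30.5 pairs. The largest library was NT liver of rat H26 at 20 weeks, with 4.08-fold more pairs than the next. Levels are given as CPM scaled by TMM (trimmed mean of M-values), which compares a gene between groups but not with other genes, since gene lengths were not used. All 6 hepatocyte markers examined (Alb, Apoa1, Ttr, Serpina1, Tat and Cps1) were above 0 in every group, with a summed level of 113700 to 268400 CPM. The rat numbers in the labels start with H in all no DEN rats and in most DEN rats, but with F in 4 DEN rats (F09 and F10 at 8 weeks, F06 at 14 and F03 at 20 weeks), and what the letter stands for is not given in the sources used here. Results that moved without these rats are given both ways. Nodule 1 of F06 was the smallest library and had the largest share of pairs in no gene (34.48%, against 28.16% in its nodule 2, 24.42% in its NT liver and 21.49 to 26.3% in the other libraries), and the part of this in the values of F06 was not tested.

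The stretch of 250 bases before the transcription start could be read for 6 of the 10 members from RefSeq (build GRCr8): Ccnd3, Ccne1, Ccnb1, Ccnb2, Cdk1 and Cdk2. Ccnd1, Ccnd2, Ccne2 and Ccna2 had no entry in the set of promoters used here. Shown here are 3 mitotic members that were called higher in treated liver at 8 and 14 weeks, and Cdk2, which was not, each 5′ to 3′ on the strand of its gene. Capitals mark the letters TTTGAA (a form of the cell cycle genes homology region, CHR), CCAAT or its reverse complement ATTGG, and GCGGGAA (an E2F core). Other forms of the CHR were not searched, so a window without TTTGAA may still hold one.
Cdk1, chr20:19265043-19265292, plus strand: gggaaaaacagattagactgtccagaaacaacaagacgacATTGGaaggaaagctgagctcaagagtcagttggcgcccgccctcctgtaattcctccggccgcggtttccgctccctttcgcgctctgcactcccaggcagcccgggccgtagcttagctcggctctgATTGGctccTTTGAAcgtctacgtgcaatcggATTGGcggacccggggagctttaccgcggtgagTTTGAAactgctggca
Ccnb2, chr8:79981659-79981908, minus strand: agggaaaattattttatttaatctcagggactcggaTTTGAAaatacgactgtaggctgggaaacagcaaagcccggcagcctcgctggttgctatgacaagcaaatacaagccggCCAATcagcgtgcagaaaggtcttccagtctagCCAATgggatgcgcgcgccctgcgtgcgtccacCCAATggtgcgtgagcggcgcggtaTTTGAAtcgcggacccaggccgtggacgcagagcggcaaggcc
Ccnb1, chr2:33655226-33655475, minus strand: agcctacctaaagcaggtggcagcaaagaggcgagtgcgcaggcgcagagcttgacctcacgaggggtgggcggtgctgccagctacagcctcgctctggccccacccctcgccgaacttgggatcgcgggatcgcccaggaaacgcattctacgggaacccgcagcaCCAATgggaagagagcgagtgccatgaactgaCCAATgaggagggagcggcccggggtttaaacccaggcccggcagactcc
Cdk2, chr7:1721879-1722128, minus strand: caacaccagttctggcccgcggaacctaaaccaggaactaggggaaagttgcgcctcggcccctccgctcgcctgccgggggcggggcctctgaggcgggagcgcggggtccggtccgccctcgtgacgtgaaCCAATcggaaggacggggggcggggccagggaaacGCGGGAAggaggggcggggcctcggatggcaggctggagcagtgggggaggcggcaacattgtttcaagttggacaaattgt

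Both strands were searched in the 6 windows and in all 33469 promoters of the table cut to the same 250 bases. TTTGAA lay in the windows of Cdk1 (72 and 16 bases before the start) and Ccnb2 (214 and 43 bases before it), and in 16.2% of all promoters. CCAAT was found in 5 of the 6 windows and in 34% of all promoters. Copies of CCAAT numbered 3 in Cdk1, all on the reverse strand at 210, 81 and 49 bases before the start, 3 in Ccnb2 and 2 in Ccnb1, and 9.42% of all promoters held at least 2 copies. Cdk2 and Ccnd3 held 1 CCAAT each and no TTTGAA, and GCGGGAA was found once, in Cdk2, against 3.36% of all promoters. The other E2F core searched, GCGCCAAA, was in none of the 6 windows and in 0.412% of promoters, and the window of Ccne1 held none of the motifs. These matches describe letters in a window and not sites of binding.

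In NT liver the A and B cyclins and Cdk1 rose at 8 and 14 weeks and the E cyclins with them, whereas at 20 weeks, after the injections had stopped, no member passed the call. In NT liver at 8 weeks 6 of the 10 members were called higher than in no DEN rats (log2 fold change of at least 1 and adjusted p of at most 0.01, edgeR quasi-likelihood test with Benjamini-Hochberg adjustment over all genes tested), against 7.29% of 10812 genes called higher and 0.620% called lower, and the same 6 did not overlap with untreated liver, against 18.8% of genes. At 14 weeks 7 were called higher, against 13.1% of 11016 genes called higher and 2.10% called lower, and 8 lay above every untreated rat, as did 2752 of the genes tested. At 20 weeks none was called, against 4.89% of 10827 genes called higher and 0.333% called lower. At an unadjusted p of at most 0.05, 7 members were higher (23.4% of genes) and Cdk2 was lower (16.8%), and 1 member, Ccne2, did not overlap with untreated liver (16.1% of genes). DESeq2 called 4 members at 20 weeks, and the share of all genes it called there is not given here. The median log2 fold change over the members was 1.75, 1.69 and 1.02 at the 3 times, and that over all genes -0.01, 0.02 and 0.02. In bulk liver, a larger number of dividing cells and more mRNA per cell cannot be told apart.

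**Figure D1:**
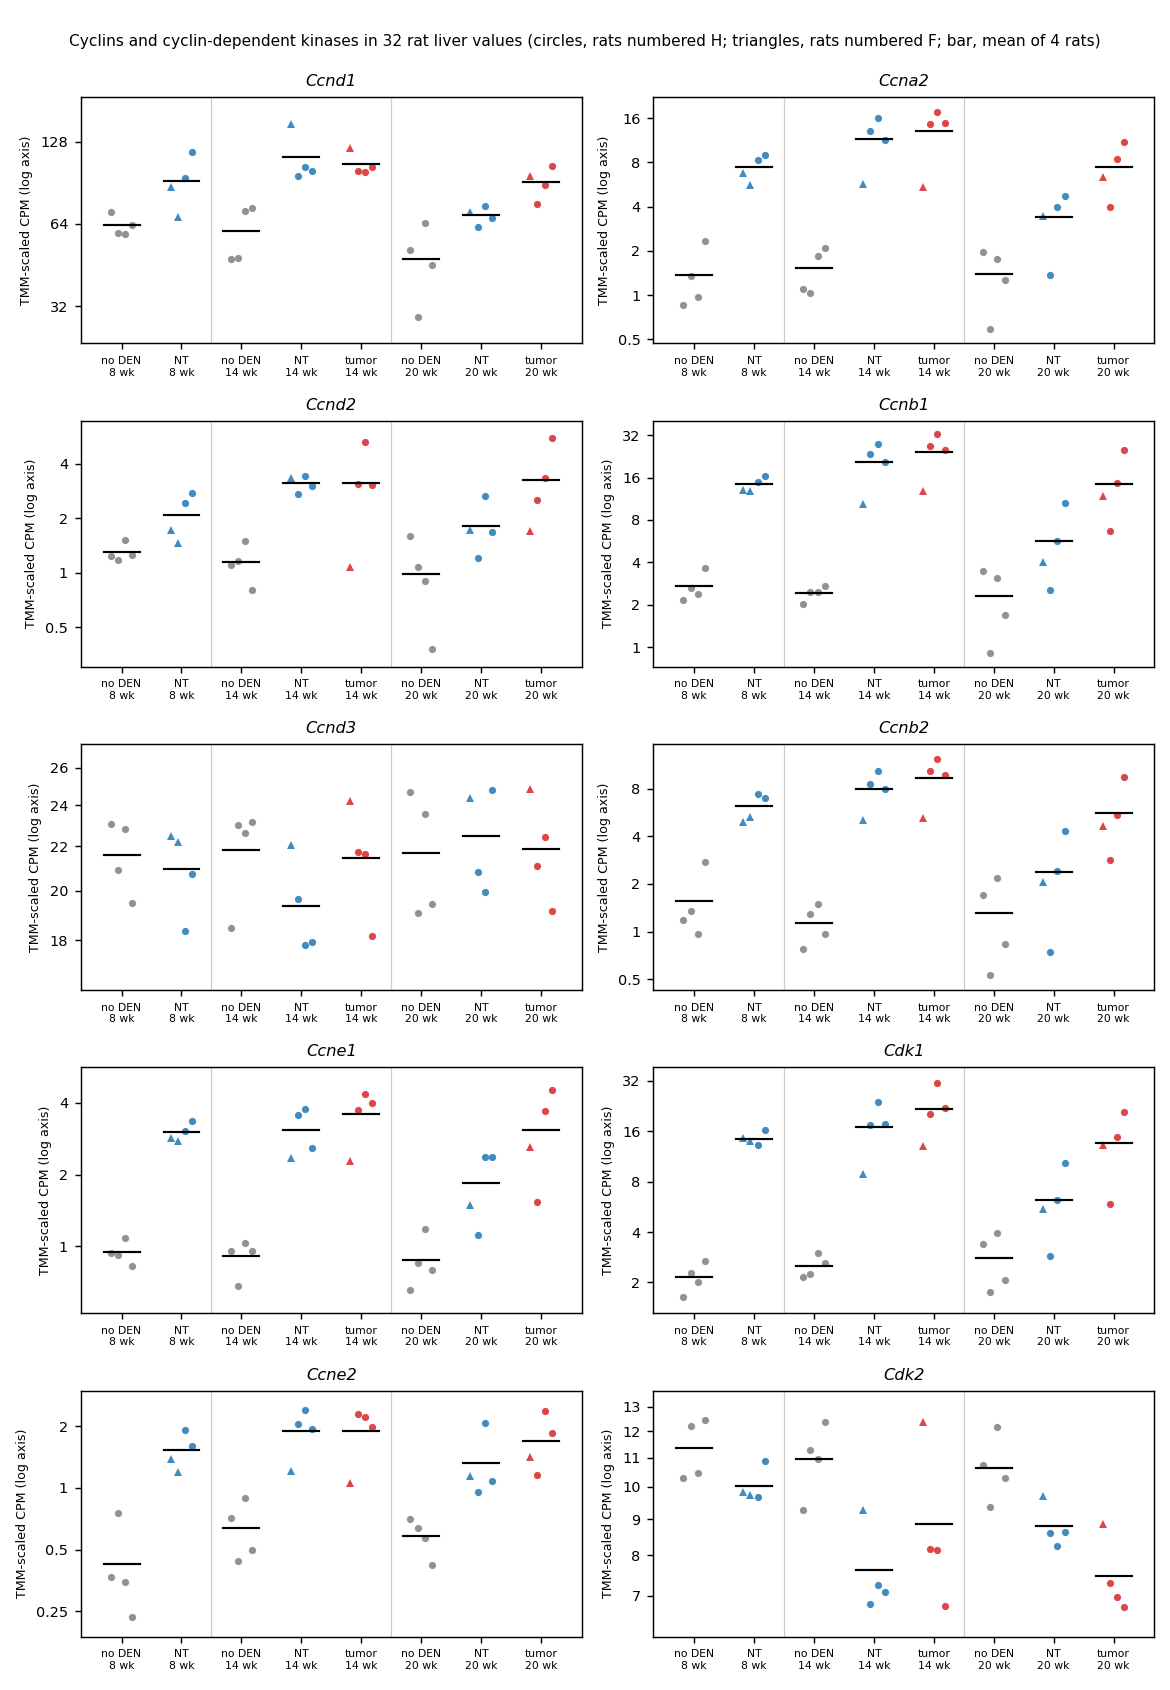
TMM-scaled CPM (log axis, each panel with its own scale) of the 10 members in 32 values from 24 rats, by week and tissue; circles are rats numbered H, triangles rats numbered F and bars the mean of 4 rats. Ccna2, Ccnb1, Ccnb2 and Cdk1 of NT liver lie above no DEN liver without overlap at 8 and 14 weeks and overlap with it at 20 weeks, while Ccnd3 stays between 17.8 and 24.9 CPM in all groups.

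Among the D cyclins, which take up growth signals in G1, only Ccnd2 was called in NT liver. Ccnd1 was at 71.0, 59.2, 58.9 and 63.7 CPM in no DEN rats at 8 weeks and at 87.6, 68.1, 94.7 and 118 CPM in NT liver. At 14 weeks the no DEN rats had 47.8, 48.1, 71.1 and 73.5 CPM and NT liver 149, 96.3, 103 and 100.1 CPM. At 20 weeks the values were 51.5, 29.2, 64.3 and 45.3 CPM without DEN and 70.8, 62.5, 74.5 and 67.5 CPM in NT liver. The NT values lay above all untreated ones at 14 weeks and overlapped with them by 1 rat at 8 and at 20 weeks. The log2 fold changes of Ccnd1 were 0.54 (SE 0.15, edgeR adjusted p = 0.0178), 0.94 (SE 0.20, adjusted p = 0.00367) and 0.54 (SE 0.20, adjusted p = 0.0694), below the fold set for a call. Leaving out H11, H12 or H21 moved the value of week 14 just past it (1.00 to 1.04). Rat F06 alone carried the NT value of 149 CPM at 14 weeks, and without F06 the log2 fold change was 0.75 (edgeR adjusted p = 0.00414).

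Ccnd2 was counted sparsely, with 9 to 42 pairs in the libraries of untreated rats. NT liver at 14 weeks held 3.13 ± 0.315 CPM (SD, n = 4) against 1.14 ± 0.287 CPM, with no overlap and a log2 fold change of 1.495 (SE 0.19, edgeR adjusted p = 0.000117). At 8 weeks the log2 fold change was 0.68 (SE 0.23, edgeR adjusted p = 0.0434), and without F09 and F10 it was 1.01 (adjusted p = 0.00751), which passed the call. At 20 weeks it was 0.93 (SE 0.37, edgeR adjusted p = 0.0857). Ccnd3 did not separate the groups. Its mean was between 19.4 and 22.5 CPM in all 8 of them, and its log2 fold changes in NT liver were -0.05, -0.14 and 0.06 with SE of 0.09 to 0.12.

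The E cyclins, which open S phase with Cdk2, were both called higher at 8 and 14 weeks. Ccne1 in no DEN rats was at 0.944 ± 0.108 CPM (SD, n = 4), 0.909 ± 0.156 CPM and 0.875 ± 0.225 CPM at the 3 times. In NT liver it was at 3.00 ± 0.258 CPM, 3.07 ± 0.701 CPM and 1.84 ± 0.630 CPM. The log2 fold changes were 1.66 (SE 0.17, edgeR adjusted p = 6.93e-05), 1.78 (SE 0.22, adjusted p = 7.66e-05) and 1.101 (SE 0.30, adjusted p = 0.0217). Ccne2 was below 1 CPM in every no DEN rat, at 0.236 to 0.891 CPM, and between 0.956 and 2.39 CPM in every NT sample, so the groups did not overlap at any time. Its log2 fold changes were 1.83, 1.60 and 1.23 with SE of 0.28 to 0.32, and the third had an edgeR adjusted p of 0.0158.

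Cdk2, the kinase of E and A cyclins, was called in NT liver at no time. No DEN rats had 10.3, 12.2, 10.5 and 12.5 CPM at 8 weeks, 9.27, 11.3, 10.9 and 12.4 CPM at 14 weeks, and 10.7, 9.35, 12.2 and 10.3 CPM at 20 weeks. NT liver had 9.83, 9.75, 9.67 and 10.9 CPM, then 9.27, 6.82, 7.26 and 7.10 CPM, and then 9.72, 8.60, 8.23 and 8.63 CPM. At 14 weeks 3 of 4 NT values lay under all untreated ones and that of F06 among them. The log2 fold changes were -0.19 (SE 0.10, edgeR adjusted p = 0.180), -0.49 (SE 0.13, adjusted p = 0.00683) and -0.27 (SE 0.11, adjusted p = 0.0973), none of which reached the fold of a call. With library totals in place of TMM the values were 0.02, -0.08 and -0.05, with the sign turned at 8 weeks, while the median of all genes moved to 0.19, 0.44 and 0.24, and relative to that median Cdk2 was at -0.18, -0.52 and -0.29.

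Cyclin B1, which with Cdk1 takes cells into mitosis, had its lowest and highest group means in untreated rats and in nodules. Ccnb1 in no DEN rats was at 2.17, 2.64, 2.37 and 3.62 CPM at 8 weeks, 2.02, 2.44, 2.46 and 2.72 CPM at 14 weeks, and 3.47, 0.909, 3.09 and 1.68 CPM at 20 weeks. In NT liver it was at 13.2, 12.8, 14.9 and 16.3 CPM at 8 weeks, 10.4, 23.7, 27.5 and 20.7 CPM at 14 weeks, and 4.02, 2.54, 5.65 and 10.5 CPM at 20 weeks. The 4 rats at 8 weeks lay close together, those at 14 weeks were higher except for F06, and at 20 weeks H25 was within the untreated range while H28 was near the lowest value of week 14. The log2 fold changes were 2.40 (SE 0.17, edgeR adjusted p = 8.44e-06), 3.13 (SE 0.30, adjusted p = 6.42e-05) and 1.32 (SE 0.52, adjusted p = 0.0935). Without F06 the value at 14 weeks was 3.33 (edgeR adjusted p = 6.52e-09).

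Cdk1, the catalytic partner of cyclin B1, was at 1.64, 2.27, 2.02 and 2.67 CPM in no DEN rats and at 14.5, 14.0, 13.2 and 16.2 CPM in NT liver at 8 weeks. At 14 weeks the untreated rats had 2.17, 2.24, 2.99 and 2.62 CPM and NT liver 8.83, 17.5, 23.99 and 17.8 CPM. At 20 weeks the values were 3.38, 1.76, 3.95 and 2.06 CPM without DEN and 5.48, 2.87, 6.18 and 10.3 CPM in NT liver. Untreated and treated rats were far apart at 8 and 14 weeks, and at 20 weeks a single NT sample, again that of H25, lay within the untreated range. The log2 fold changes were 2.74 (SE 0.15, edgeR adjusted p = 3.65e-06), 2.80 (SE 0.30, adjusted p = 9.45e-05) and 1.17 (SE 0.40, adjusted p = 0.0559).

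Ccna2, which binds Cdk2 in S phase and Cdk1 in G2, and Ccnb2, the second mitotic B cyclin, went the same way. Ccna2 was at 1.37 ± 0.664, 1.52 ± 0.529 and 1.39 ± 0.615 CPM (SD, n = 4) in no DEN rats and at 7.43 ± 1.54, 11.6 ± 4.35 and 3.40 ± 1.45 CPM in NT liver. Its log2 fold changes were 2.43 (edgeR adjusted p = 0.000216), 2.95 (adjusted p = 0.000183) and 1.29 (adjusted p = 0.0428), with SE of 0.29 to 0.42. Ccnb2 was at 1.56 ± 0.807, 1.13 ± 0.320 and 1.31 ± 0.761 CPM without DEN and at 6.17 ± 1.23, 7.96 ± 2.20 and 2.37 ± 1.47 CPM in NT liver. Its log2 fold changes were 1.97 (edgeR adjusted p = 0.000842), 2.85 (adjusted p = 1.87e-05) and 0.86 (adjusted p = 0.275), with SE of 0.26 to 0.55. At 20 weeks the spread between the 4 NT rats was wide for every mitotic member, and leaving out H25, the lowest of them, brought Ccne1 and Ccna2 past the call.

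In untreated rats no member was called between 8 and 14 weeks or between 14 and 20 weeks, and no gene was (0.00% of 10486 and of 10432 genes). At an unadjusted p of at most 0.05 the 2 comparisons gave 1038 and 670 genes, none of them a member (5.44% and 3.30% of genes higher, 4.46% and 3.12% lower), and DESeq2 called 20 and 18 genes. Whether NT liver differed less from no DEN liver at 20 than at 14 weeks was tested directly, as the change of that difference. The change was -1.65 for Ccna2 (SE 0.60, edgeR adjusted p = 0.183), -1.81 for Ccnb1 (SE 0.63, adjusted p = 0.176), -1.99 for Ccnb2 (SE 0.65, adjusted p = 0.151) and -1.63 for Cdk1 (SE 0.53, adjusted p = 0.151), so that none passed, against 0.373% of 11245 genes called lower and 0.365% called higher. DESeq2 called Ccnb2 and Cdk1, as did edgeR without H28, the NT rat with the highest values at 20 weeks. Between 8 and 14 weeks no member passed either, against 4.16% of 11219 genes called higher and 4.80% called lower. The value of Ccnb1 there was 0.73 (SE 0.35, edgeR adjusted p = 0.197), and without F06 it was 0.95 (adjusted p = 0.00945).

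**Figure D2:**
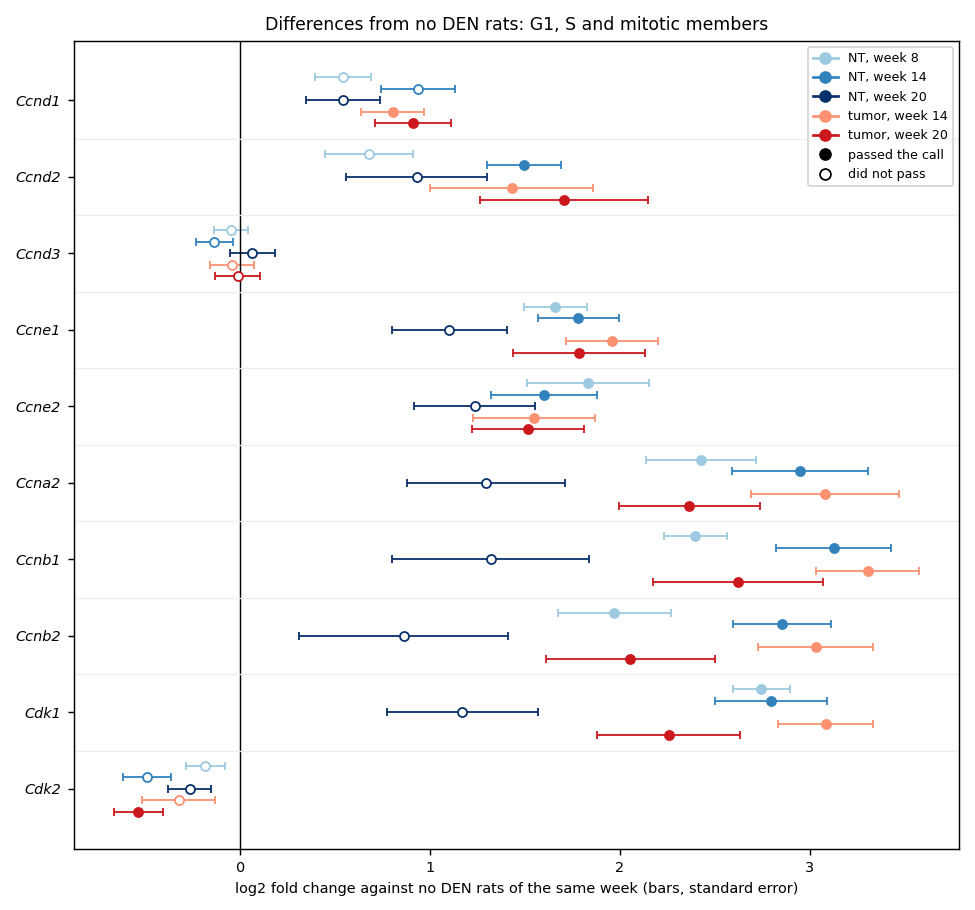
Log2 fold change of each member against no DEN rats of the same week (points, bars are the standard error of the edgeR fit), for NT liver (blue shades, darker with time) and tumors (red shades); filled points passed the call of their comparison, which was stricter for NT liver, and open points did not. The mitotic members reach up to 3.31 in tumors at 14 weeks, NT liver at 20 weeks has no filled point, and Cdk2 and Ccnd3 lie near or under 0.

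In tumor nodules 8 of the 10 members were called higher than in no DEN liver at both times (log2 fold change of at least 0.5 and adjusted p of at most 0.05), against 23.9% of 11316 genes at 14 weeks and 23.6% of 11199 at 20 weeks. At 14 weeks 7 members and at 20 weeks 8 lay above every untreated rat, against 27.6% and 27.3% of genes. Ccnd3 was the member that never passed, and Cdk2 was called lower at 20 weeks, against 15.2% of genes called lower and 21.5% lying under every untreated rat. The untreated rats are the same ones as in the comparisons of NT liver, where the call was stricter. Under the rule of the nodules NT liver had 8, 8 and 3 members called higher at 8, 14 and 20 weeks, those of week 20 being Ccne1, Ccne2 and Ccna2, against 16.5%, 22.8% and 14.3% of genes called higher and 5.21%, 9.85% and 3.82% called lower. Ccnb1 in nodules was at 12.9, 26.7, 32.5 and 24.9 CPM at 14 weeks and at 11.9, 6.69, 14.6 and 24.9 CPM at 20 weeks. Cdk1 was at 13.2, 20.4, 30.9 and 22.02 CPM and then at 13.2, 5.87, 14.7 and 20.9 CPM. Every nodule value of both genes lay above every untreated value of its week, F06 was the lowest at 14 weeks and H25 the lowest at 20 weeks. The log2 fold changes of Cdk1 were 3.08 (SE 0.25, edgeR adjusted p = 2.80e-05) and 2.26 (SE 0.38, adjusted p = 0.000947).

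The other mitotic members and the E cyclins were 2.86-fold to 8.47-fold higher in nodules than in untreated liver over both weeks. Ccna2 had log2 fold changes of 3.08 and 2.37, Ccnb2 of 3.03 and 2.06, Ccne1 of 1.96 and 1.78, and Ccne2 of 1.55 and 1.51, with SE of 0.24 to 0.45 and edgeR adjusted p values of 7.35e-05 to 0.00367. Of the D cyclins, Ccnd1 was at 122, 99.8, 99.5 and 104 CPM in nodules at 14 weeks and at 95.9, 75.6, 89.1 and 104 CPM at 20 weeks, all above the untreated values. Its log2 fold changes were 0.80 (SE 0.17, edgeR adjusted p = 0.00337) and 0.91 (SE 0.20, adjusted p = 0.00397). Ccnd2 was uneven: at 14 weeks the nodules of F06 held 1.07 CPM, within the untreated range, and those of the other rats 3.03 to 5.25 CPM, and at 20 weeks the 4 rats held 1.69, 2.52, 3.33 and 5.53 CPM. Its log2 fold changes were 1.43 (SE 0.43, edgeR adjusted p = 0.0213) and 1.71 (SE 0.44, adjusted p = 0.00882), and the call at 14 weeks was lost without H09, H10, H12 or H22 (adjusted p of 0.0534 to 0.0629), that at 20 weeks with nodule 1 of each rat alone (adjusted p = 0.108).

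Cdk2 in nodules at 20 weeks was at 8.87, 7.31, 6.97 and 6.74 CPM, under every untreated value of that week. The log2 fold change was -0.54 (SE 0.13, edgeR adjusted p = 0.00598), and without H15, H26 or H28 it was -0.48, -0.50 and -0.48 and no longer past the fold. At 14 weeks it was -0.33 (SE 0.19, edgeR adjusted p = 0.187) with F06 at 12.4 CPM, and without F06 it was -0.51 (adjusted p = 0.00198), which passed the call, so that 9 members were then called. With library totals in place of TMM the value of Cdk2 was 0.24 at 14 weeks (edgeR adjusted p = 0.288) and -0.05 at 20 weeks (adjusted p = 0.760), and that of Ccnd3 at 14 weeks turned from -0.04 to 0.53 (adjusted p = 0.00400). The median of all genes stood at 0.57 at 14 weeks and 0.51 at 20 weeks on that scale, genes called higher went from 2706 to 5921 and genes called lower from 1719 to 422 at 14 weeks, and relative to the median Cdk2 was at -0.33 at 14 weeks and -0.56 at 20 weeks and Ccnd3 at -0.04 at 14 weeks. The call of Cdk2 therefore holds relative to the other genes and not as a share of all counted pairs.

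The nodules were also compared with NT liver of the same rats. At 14 weeks no member was called and no gene was (0.00% of 11466 genes, with 1348 at an unadjusted p of at most 0.05, none of them a member, 4.60% of genes higher and 7.15% lower, and 35 called by DESeq2), and the rat as a block left this at 0 members and 0.00% of genes. Log2 differences were between -0.11 for Ccnd1 and 0.32 for Cdk1, with SE of 0.12 to 0.38. At 20 weeks the comparison of group means called no gene either (0.00% of 11546 genes, with 12.4% higher and 11.6% lower at an unadjusted p of at most 0.05, among the higher ones Ccnd1, Ccna2, Ccnb1, Ccnb2 and Cdk1). DESeq2 called Ccna2 and Ccnb1 there, and edgeR called Ccna2 without H25.

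NT liver and nodules came from the same animal, and with the rat as a block 5 members were higher in nodules at 20 weeks, against 9.21% of genes called higher and 5.46% called lower. Ccnb1 was 2.54 to 10.5 CPM in NT liver and 6.69 to 24.9 CPM in nodules, and in each of the 4 rats the nodule value was the higher one. Its log2 difference was 1.36 (SE 0.09, edgeR with the rat as block, adjusted p = 1.05e-06), that of Ccnb2 1.27 (SE 0.14, adjusted p = 4.85e-05), that of Cdk1 1.12 (SE 0.10, adjusted p = 5.22e-06), that of Ccna2 1.12 (SE 0.12, adjusted p = 4.30e-05) and that of Ccne1 0.69 (SE 0.14, adjusted p = 0.00382). Ccnd1 was at 0.37 (adjusted p = 0.00469), below the fold of a call although its groups did not overlap (6.76% of genes), Cdk2 at -0.27 (adjusted p = 0.0440), Ccnd2 at 0.74 (adjusted p = 0.0708), Ccne2 at 0.35 (adjusted p = 0.147) and Ccnd3 at -0.07 (adjusted p = 0.637), all from the same edgeR fit. The median over the members was 0.71 and that over all genes -0.02. In the same fit 3 of 4 cholangiocyte and progenitor markers were higher (Krt19 at 2.08, Sox9 at 1.41 and Epcam at 0.90), 3 of 6 hepatocyte markers were lower (Cps1 at -0.72, Ttr at -0.59 and Alb at -0.51), of 6 stellate cell markers Col1a1 was higher (1.29), and of 5 macrophage markers Marco was lower (-0.81). No endothelial, T cell or B and plasma cell marker was called. The hepatocyte marker Apoa1, also not called, went the other way in group means. It was at 3113 ± 909 CPM (SD, n = 4) in NT liver and 4387 ± 588 CPM in nodules (log2 difference 0.46, edgeR without the block, adjusted p = 0.220). Summed cholangiocyte and progenitor markers were 33.3 to 53.4 CPM in NT liver and 68.6 to 181 CPM in nodules, summed hepatocyte markers 177500 to 239300 and 113700 to 179000 CPM, and no measured marker of either list was at 0. Alb alone held most of the hepatocyte sum, with means of 170800 CPM in NT liver and 124100 CPM in nodules. The part of these marker changes in the difference of the cyclins was not tested. With nodule 1 of each rat alone Ccnb2 lost its call in this fit (adjusted p = 0.0803), and with nodule 2 alone Ccne1 did (adjusted p = 0.0563).

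Whether nodules stood further from NT liver at 20 than at 14 weeks was tested as a change of the difference. Without the block no gene was called (0.00% of 11781 genes, with 1.42% higher and 0.238% lower at an unadjusted p of at most 0.05, Ccnd1 among the higher). With the rat as a block 4 members were called, against 0.450% of genes: Ccnb1 at 1.14 (SE 0.10, edgeR adjusted p = 0.00271), Cdk1 at 0.79 (SE 0.12, adjusted p = 0.0244), Ccna2 at 0.99 (SE 0.16, adjusted p = 0.0368) and Ccnb2 at 1.09 (SE 0.17, adjusted p = 0.0368). Leaving out F03, H21, H22, H23, H25, H26 or H28 took the number of members to 1 or 2, without F06 it was 4, and Ccnb1 was called each time. With nodule 1 alone no member and no gene was called. With nodule 2 alone 7 members were called, 6 higher and Cdk2 lower (-0.61, edgeR adjusted p = 0.0186), among 950 genes higher and 708 lower. For the difference of nodules from no DEN liver no member passed the same test of a change between the weeks, against 0.00862% of 11607 genes called higher and 0.0775% called lower, and the values ran from -0.98 for Ccnb2 (SE 0.58) to 0.27 for Ccnd2 (SE 0.66).

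**Figure D3:**
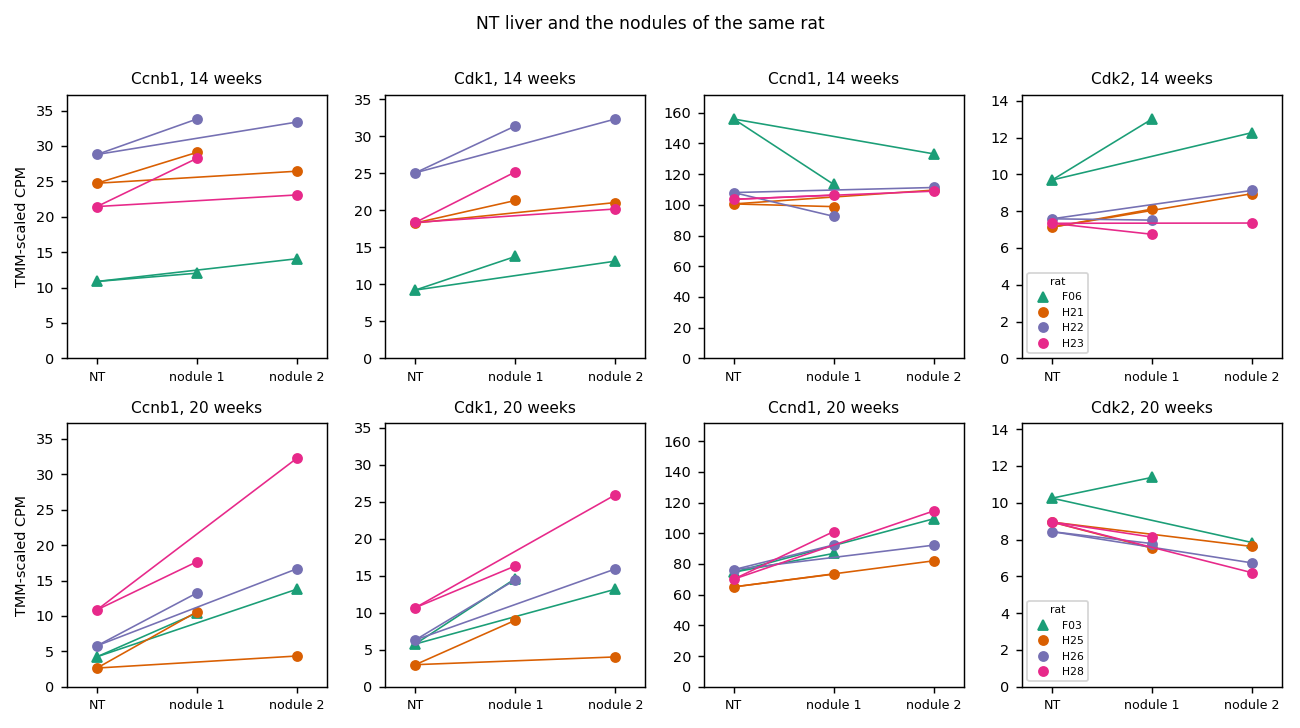
TMM-scaled CPM (from 0) of Ccnb1, Cdk1, Ccnd1 and Cdk2 in NT liver and in each of the 2 nodules of the same rat, at 14 weeks (top) and 20 weeks (bottom); each colour is a rat, lines join a rat's NT value to its nodules, and triangles are rats numbered F. All 8 nodules at 20 weeks lie above their own NT liver for Ccnb1, Cdk1 and Ccnd1, and 1 of 8 does for Cdk2. The share of all genes with such counts was not computed.

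Taken one by one, and scaled over all 40 libraries, the 8 nodules of week 20 were each above their own NT liver for Ccnd1, Ccne1, Ccna2, Ccnb1, Ccnb2 and Cdk1. For Ccnd2 7 of 8 were, for Ccne2 6, for Ccnd3 4 and for Cdk2 1. At 14 weeks all 8 were above for Ccnb1 and Cdk1, and for the other members 3 to 7 of 8 were. The share of all genes with such counts was not computed, so these counts describe the members only. The 2 nodules of a rat, which are not replicates of a condition, differed least for Ccnd3 (median ratio of the higher to the lower 1.09) and most for Ccnd2 (1.87). In H22 at 14 weeks one nodule had 8.99 CPM of Ccnd2 and the other 2.47 CPM, against 3.57 CPM in NT liver. H25 at 20 weeks had the widest gaps of the mitotic members, with 10.6 and 4.34 CPM of Ccnb1 and 8.99 and 4.03 CPM of Cdk1, while NT liver held 2.64 and 2.98 CPM.

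The summed level of the mitotic cyclins (Ccna2, Ccnb1 and Ccnb2) was set against that of the D cyclins in each animal, as a description without a test. Since CPM is not per length, the size of this ratio has no meaning by itself, and only its differences between groups are read. On the log2 scale it was -4.00 ± 0.53 (SD, n = 4), -4.04 ± 0.08 and -3.95 ± 0.51 in no DEN rats at 8, 14 and 20 weeks. In NT liver it was -2.04 ± 0.13, -1.81 ± 0.84 and -3.20 ± 0.80, and in nodules -1.57 ± 0.73 at 14 weeks and -2.21 ± 0.59 at 20 weeks. NT liver and untreated liver did not overlap at 8 and 14 weeks and did at 20 weeks, where H25 stood at -4.19 and H28 at -2.27. F06 was the lowest rat at 14 weeks in both tissues, with -3.04 in NT liver against -1.60 to -1.21 in the others.

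The log2 ratio was higher in NT than in untreated liver by 1.96, 2.23 and 0.75 units at the 3 times, and in nodules by 2.47 and 1.75 units. Nodules exceeded their own NT liver in this ratio in all 8 rats, by 0.24 units on average at 14 weeks and by 1.00 unit at 20 weeks. Weighing each gene equally, with the mean log2 level of either set, gave 1.94, 2.14, 0.57, 2.39, 1.49, 0.24 and 0.92 for the same 7 differences, and turned the direction in H22 at 14 weeks, with -0.23 in nodules and -0.16 in NT liver. The summed D cyclins moved less, from 70.3 to 86.1 CPM as group means in untreated rats and from 93.1 to 135 CPM in NT liver and nodules. As group means Ccnd1 held 66.9 to 83.1% of this sum and Ccnd2 1.41 to 2.78%, so that the sum hardly shows Ccnd2.

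**Figure D4:**
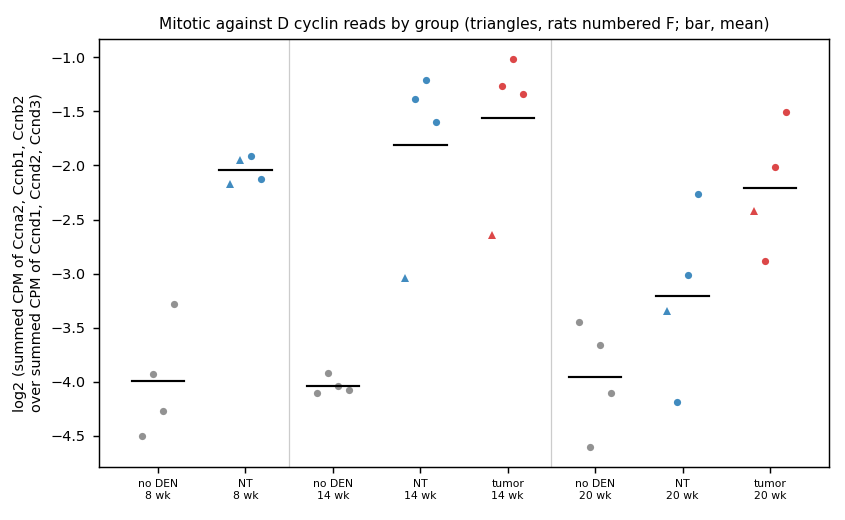
Log2 of the summed CPM of Ccna2, Ccnb1 and Ccnb2 over that of Ccnd1, Ccnd2 and Ccnd3 in each rat by group (grey, no DEN; blue, NT; red, nodules; triangles, rats numbered F; bars, mean of 4 rats). No DEN rats stay between -4.60 and -3.28, and NT liver at 20 weeks spreads from -4.19 to -2.27.

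Genes that act on the cyclin-CDK complexes were read from lists of their own. For these and for the markers of cell types, NT liver and nodules were counted under the same rule, that of the nodules (log2 fold change of at least 0.5 and adjusted p of at most 0.05), which called 16.5%, 22.8% and 14.3% of all genes higher in NT liver at 8, 14 and 20 weeks and 23.9% and 23.6% in nodules. Of the partners of D cyclins, Cdk4 had log2 differences from no DEN liver of -0.13 to 0.26 in NT liver and nodules and was not called. Cdk6 had differences of -0.14 to 0.67, of which that of NT liver at 14 weeks passed (0.67, edgeR adjusted p = 0.0235). Of 7 CDK inhibitors listed, 6 were in the files and 5 could be tested in NT liver, where 3, 4 and 1 were called higher at 8, 14 and 20 weeks and none lower. Cdkn1a (p21), the inhibitor induced by p53 after DNA damage, was at 32.4 ± 6.10 CPM (SD, n = 4) in no DEN rats and 227 ± 32.1 CPM in NT liver at 8 weeks, at 37.2 ± 4.13 and 139 ± 20.9 CPM at 14 weeks, and at 42.8 ± 12.4 and 52.8 ± 13.3 CPM at 20 weeks. Its log2 fold change was 2.80 at 8 weeks (SE 0.15, edgeR adjusted p = 3.65e-06) and 1.94 at 14 weeks (SE 0.12, adjusted p = 2.44e-06). The drop of this difference passed the test from 8 to 14 weeks (-0.87, edgeR adjusted p = 0.0148) and from 14 to 20 weeks (-1.62, adjusted p = 0.0145), and in nodules from 14 to 20 weeks (-1.73, adjusted p = 0.00937).

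Ccng1, a cyclin that p53 also induces, was at 92.6, 78.7 and 40.7 CPM in NT liver as means of 4 rats and at 34.5, 37.7 and 43.2 CPM without DEN. From 14 to 20 weeks its log2 difference changed by -1.17 (edgeR adjusted p = 0.00359), and in nodules by -1 (adjusted p = 0.0206). Cdkn2c (p18), which blocks Cdk4 and Cdk6, was instead still called at 20 weeks: it was at 4.74, 5.26 and 3.96 CPM in NT liver against 1.38, 1.01 and 0.999 CPM, with log2 fold changes of 1.77, 2.42 and 1.98 (edgeR adjusted p at 20 weeks 0.000442). In nodules 5 of 6 inhibitors were called higher at 14 weeks and 3 at 20 weeks. Cdkn2a was tested in the nodule comparisons alone: it had 0 or 1 pair in most untreated libraries and 0.670 to 2.82 CPM in nodules. Cdkn1b (p27) was called nowhere, with log2 differences of 0.04 to 0.31.

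Of 12 regulators of CDK phosphorylation and binding listed, 11 were tested, and 6, 8 and 5 were called higher in NT liver at the 3 times and 8 and 7 in nodules, with none lower. Pkmyt1, a kinase that holds Cdk1 inactive, was called in all of them, with log2 fold changes of 2.38, 2.23 and 1.85 in NT liver and 2.71 and 2.60 in nodules. Cdkn3, a phosphatase of CDKs, was at 2.58 and 2.39 in NT liver at 8 and 14 weeks. Wee1, which also inhibits Cdk1, was higher in NT liver at all 3 times (0.99, 1.45 and 0.62), as was the activating phosphatase Cdc25c (1.09, 1.44 and 1.198). Cdc25b was higher at 8 and 14 weeks (0.90 and 1.12). Cdc25a was higher in NT liver at 14 and 20 weeks (0.51 and 0.58) and in nodules (0.70 and 0.85). Of the small CDK-binding proteins, Cks2 was higher in NT liver at the 3 times (1.03, 0.92 and 0.52) and in nodules (1.16 and 0.81), and Cks1b was called nowhere (0.05 to 0.11).

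Of 8 genes of cyclin turnover listed, 7 were tested, and 4, 4 and 0 were called higher in NT liver and 4 in nodules at either time. Ube2c and Cdc20, which serve the anaphase-promoting complex that destroys cyclin B, had log2 fold changes of 2.85 and 1.88 in NT liver at 8 weeks and of 2.62 and 2.17 at 14 weeks. Among the pocket proteins, which hold E2F factors in check, Rbl1 was higher in NT liver at 14 weeks (1.28), Rbl2 was lower in nodules (-0.67 and -0.71) and Rb1 was lower in nodules at 20 weeks (-0.54). Ccnf was higher in NT liver at 8 and 14 weeks (0.99 and 1.44) and in nodules (1.51 and 1.01). In the fit with the rat as a block, which called 9.21% of genes higher and 5.46% lower in nodules than in NT liver at 20 weeks, 4 of 11 regulators (among them Pkmyt1 at 0.72), 2 of 7 genes of cyclin turnover (Ube2c at 1.23 and Cdc20 at 1.08) and 2 of 6 CDK inhibitors (Cdkn2a at 1.87 and Cdkn2b at 0.87) were higher and none of these lists had a gene called lower. Ccnf (0.91) and Mki67 (1.02) were higher too, and of 3 pocket proteins Rbl2 was lower (-0.52).

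**Figure D5:**
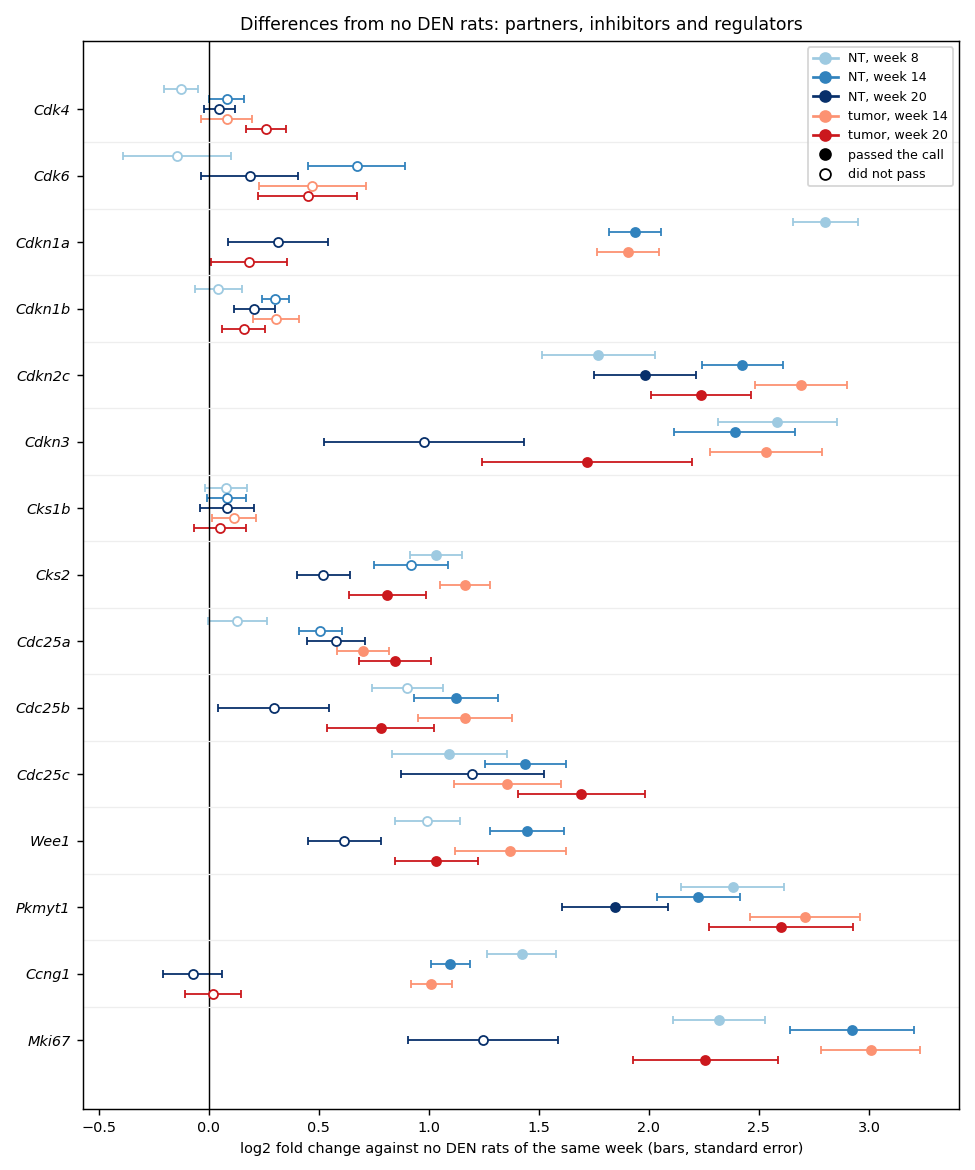
Log2 fold change against no DEN rats of the same week (points; bars, standard error of the edgeR fit) of partners, inhibitors and regulators of the members, NT liver in blue shades and nodules in red shades; filled points passed the call of their comparison, which was stricter for NT liver. Cdk4, Cdk6, Cdkn1b and Cks1b have open points throughout, and Cdkn1a goes from 2.80 in NT liver at 8 weeks to an open point at 20 weeks.

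Cyclins and CDKs grouped as transcriptional (12 listed, all in the files, of which some have other roles too) gave no call in NT liver at any time, with 11, 12 and 12 tested. In nodules Ccnl2 was lower at 14 weeks (-0.67) and Cdk19 higher at 20 weeks (0.50). Their median log2 differences were -0.02, -0.11 and -0.05 in NT liver and -0.02 and -0.13 in nodules, beside 1.75, 1.69, 1.02, 1.75 and 1.74 for the members. Of 10 tested genes of the remaining cyclins and CDK-like kinases, Cdk18 was lower in NT liver at 8 weeks (-0.50), 2 were higher at 14 weeks and 1 at 20 weeks, and 2 were higher in nodules at each time.

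Markers of dividing cells and of other liver cells moved in the same samples. The summed level of Mki67, Pcna and Top2a was 23.1 to 34.0 CPM in no DEN rats, 69.4 to 86.1, 60.9 to 130 and 32.5 to 62.5 CPM in NT liver at the 3 times, and 62.5 to 138 and 48.1 to 114 CPM in nodules, with 3, 3 and 2 of 3 called higher in NT liver and 3 of 3 in nodules. Of 5 cholangiocyte and progenitor markers 4 were in the files, none at 0, and 3, 4 and 4 were called higher in NT liver and 4 in nodules at either time. Their sum was 16.01 to 23.4 CPM without DEN, 28.2 to 36.0, 36.7 to 85.4 and 33.3 to 53.4 CPM in NT liver, and 61.4 to 115 and 68.6 to 181 CPM in nodules. The 6 hepatocyte markers summed to 229800 to 268400 CPM without DEN, 141500 to 240700 CPM in NT liver and 113700 to 179000 CPM in nodules, where 4 of 6 were lower at either time and Apoa1 was higher. In NT liver 1, 4 and 0 of them were lower at the 3 times, and Apoa1 was higher at 14 and 20 weeks. Alb alone held most of the summed level, with means at 20 weeks of 214300 CPM without DEN, 170800 CPM in NT liver and 124100 CPM in nodules.

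Of 7 stellate cell markers Col1a2 was listed at 0 in every group, and of the other 6 there were 5, 5 and 3 called higher in NT liver (Pdgfrb was lower at 14 weeks) and 4 in nodules at either time, with a sum of 168 to 258 CPM without DEN, 229 to 459 CPM in NT liver and 262 to 468 CPM in nodules. Of 6 endothelial markers 4 were called higher in NT liver at each time and 4 in nodules at either time, and their sums were 51.2 to 123 CPM, 135 to 173 CPM and 122 to 182 CPM. T cell markers called higher numbered 5 of 5 tested at 8 weeks, 2 of 3 and 1 of 4 later, and 4 and 2 of 5 in nodules, with sums of 2.04 to 3.82 CPM, 2.89 to 8.46 CPM and 3.59 to 7.62 CPM. Of 5 macrophage markers 1, 1 and 2 were called higher in NT liver and 1 and 2 in nodules (200 to 598, 237 to 610 and 253 to 549 CPM), and of B and plasma cell markers 2 of 2 tested were called higher at 8 weeks and none later or in nodules (sums of 0.355 to 2.39 CPM). Of the stellate cell sum in NT liver at 20 weeks, Col3a1 alone held 170.5 CPM as a mean of 4 rats. The part of any of these cells in the levels of the cyclins was not tested.

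The members were finally compared by their course over the 32 values (Pearson correlation of log2 CPM, a description over values that share treatment, week and, for NT liver and nodules, the rat). Ccnb1 ran with Ccnb2 and Cdk1 at r = 0.98 each, and within the 20 DEN-treated values at 0.98 as well. Ccnd1 and Ccnb1 had r = 0.84 over all values and 0.60 within the treated ones, Ccnd3 and Ccnb1 -0.19 and -0.39, and Ccnb1 and Cdk2 -0.61 and -0.33. Of 10067 genes with a mean of at least 1 CPM, those most like Ccnb1 were Kif20a, Spag5 and Cdc20 (r = 0.99 each), and those most like Ccna2 were Kif20a, Bub1 and Cdca3 (0.99, 0.99 and 0.98). Cdk1 was closest to Prc1, Cenpt and Mki67 (0.99 each) and Ccnb2 to Ccnb1, Cdc20 and Kif22 (0.97 to 0.98). The E cyclins had Prc1, Plk4 and Arhgap11a (Ccne1, 0.97 each) and Mcm5, Pbk and E2f1 (Ccne2, 0.93 each) as nearest genes. Ccnd1 was nearest to Slc1a5, Knstrn and Cep295 (0.86 to 0.88), Ccnd2 to Rasa3, Myo1c and Msn (0.88 to 0.89), Ccnd3 to Gltscr2, Stk19 and Nr1h2 (0.68 to 0.70) and Cdk2 to Sub1, Elmo3 and Olr59 (0.89 to 0.90). Within the 20 treated values the same genes stood at 0.641 to 0.729 for Ccnd1, 0.785 to 0.847 for Ccnd2 and 0.81 to 0.898 for Ccne2. They stood at 0.777 to 0.822 for Ccnd3, 0.871 to 0.918 for Cdk2, 0.926 to 0.929 for Ccne1 and 0.963 to 0.995 for the mitotic members.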

How the data were processed

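Gene counts of 40 liver RNA libraries from 24 rats were used. Per the labels and the study's methods, the authors made stranded poly(A) libraries, aligned read pairs with STAR 2.7.1a to rn6 and counted with HTSeq those lying in exons of a single gene; the deposited values are raw counts. Pairs that fit more than 1 place were dropped, which lowers genes with close copies, and pairs in no gene were 21.49 to 34.48% of a library and stayed out of the totals. The authors' DESeq2 version was 1.22.2.

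Both nodules of an animal were summed as counts (2 libraries). Levels are TMM-scaled CPM, log2 values used a prior count of 2, and intervals of single counts were not computed, so depth limits low genes. Tests were 2-sided edgeR 4.0.16 quasi-likelihood tests (R 4.3.3, filterByExpr, TMM, robust, limma 3.58.1) on the groups compared, 4 rats each, with Benjamini-Hochberg adjustment over all genes tested: 9 comparisons and 4 changes of a difference. All 10 members passed the filter in each. The study's pair for NT liver at 8 and 14 weeks (2-fold, adjusted p 0.01) was used for NT against no DEN liver at all 3 times. A log2 fold change of 0.5 with adjusted p 0.05, after the study's plots of human HCC genes, was used for the other comparisons, and adjusted p 0.05 alone for changes of a difference. The study words both limits as a fold change, and reading the first as 2-fold and the second as log2 was a choice made here. The calls of Ccne1, Ccne2 and Ccnd2 in NT liver, and that of Ccnb2 at 8 weeks, lay under a log2 value of 2. Lists of regulators and markers were counted under the second pair in all groups. Scripts were tested on simulated data.

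Same-rat pairs come from the labels: deviations of NT liver and nodules from their group means correlated at 0.39 to 0.649 within a rat, and for H21 (0.486) the correlation with another rat was higher (0.522), so the fit with the rat as block is given where it changes a call. Alternatives were DESeq2 1.42.0, other scaling, no filter, other thresholds, all 8 groups in 1 fit, single nodules, the rat as block, leaving out each rat and leaving out the rats numbered F; totals without TMM and alternatives within the blocked fit were chosen after seeing the data. All 92 pairs of libraries within a group differed by more than sampling noise (the smallest chi-square over its degrees of freedom was 12.9). Rats are separate animals.

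The members and lists were chosen with earlier results of these data known. Named were all members, 15 partners and regulators, up to 3 called genes with the largest change of each other list, and the 3 genes most like each member. Genes named beyond these were chosen after their values were seen. Protein sequences and gene lengths were not used here.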

Additional observations from a re-analysis of the deposited data

Results flagged for a closer look

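In 80 groups of 4 rats (each member in each group) 3 rats stood apart from the other 3 by the gap of the extreme value over the range (Dixon's criterion), and chance gives about 1 in 20, or 4.0. These were Ccnd1 in NT liver at 14 weeks, with 149.1 CPM in F06 against 96.3 to 103 CPM; Ccnd3 in no DEN rats at 14 weeks, with 18.46 CPM in H09 against 22.6 to 23.2 CPM; and Cdk2 in NT liver at 8 weeks, with 10.89 CPM in H18 against 9.67 to 9.83 CPM.

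The difference between nodules and NT liver of the same rat was larger at 20 than at 14 weeks for 4 members in the edgeR fit with the rat as block: by 0.99 for Ccna2, 1.14 for Ccnb1, 1.09 for Ccnb2 and 0.79 for Cdk1 on the log2 scale. Over all genes 53 of 11781 (0.450%) were called in that fit. The number of members was 1 or 2 without F03, H21, H22, H23, H25, H26 or H28, 4 without F06 and 0 with nodule 1 of each rat alone. In the fit without the block none of them passed.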

How the results depend on the processing

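Of 2417 values of members under the alternatives, 2228 kept direction and side of the threshold, 40 lost a call, 50 gained one, 98 changed sign with no call on either side and 1 turned with a call: Ccnd3 in nodules at 14 weeks, at 0.53 with totals without TMM. For NT liver at 20 weeks, members called were 4 with DESeq2, 2 with all 8 groups in 1 fit, 3 at a log2 fold change of 0.5 and adjusted p of 0.05, 2 with totals, and 0 to 2 leaving out 1 rat (2 without H25). The change from 8 to 14 weeks gave 1 without the rats numbered F, 1 with totals and 0 to 1 leaving out a rat (F06), and that from 14 to 20 weeks 2 with DESeq2 and 0 to 2 leaving out a rat (H28). Nodules against NT liver at 20 weeks gave 2 with DESeq2, 4 with all 8 groups, 5 with the rat as replicate block and 0 to 1 leaving out a rat (H25). The change of that difference gave 4 with the block, and within that fit 0 with nodule 1, 7 with nodule 2 and 1 to 4 leaving out a rat. The block changed no other call of a member. The cause of these shifts was not tested. Counts over all genes are not given here for NT liver at 20 weeks with DESeq2 or all 8 groups. The same holds for the change from 8 to 14 weeks without the rats numbered F.

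Counts over all genes moved more. At the other threshold pair they went from 855 to 2344, 1676 to 3592 and 565 to 1957 in NT liver, and from 4425 to 2117 and 4347 to 1946 in nodules. NT liver at 20 weeks had 971 with totals and 250 to 649 leaving out a rat. Nodules against NT liver at 20 weeks had 0, but 902 with DESeq2, 1096 with all 8 groups, 218 with nodule 1, 1693 with the block (1009 with nodule 1, 1070 without H26) and 445 without H25; at 14 weeks 0, but 35 with DESeq2 and 1 with each nodule as a value. Untreated rats between weeks had 0 and 0, but 20 and 18 with DESeq2, 2 and 2 with no filter, 1 with all 8 groups for the first, and up to 117 (without H07) and 2 leaving out a rat. The change from 8 to 14 weeks had 1005, but 1529, 151 and 1852 with DESeq2, all 8 groups and totals and 533 to 1870 leaving out a rat; from 14 to 20 weeks 83, but 381, 41, 144, 182 without the rats numbered F and 31 to 408. The change in nodules had 10, but 29, 16, 5 with nodule 1 and 6 to 15. The change of the nodule-NT difference had 0, but 53 with the block, and then 0 with nodule 1, 1658 with nodule 2 and 7 to 187. With totals the share of calls that were higher went from 61.2 to 93.3% and 60.8 to 91.9% in nodules at 14 and 20 weeks, from 46.5 to 89.8% for the change from 8 to 14 weeks and from 49.4 to 18.8% for that from 14 to 20 weeks, and 19 of 80 levels moved by more than 1 SD. Genes near 1 CPM, such as Ccnd2 and Ccne2, rest on few pairs in untreated rats, and 4 rats a group limit precision.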
